A study of Mus musculus with 15 samples.

Results

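Invariant natural killer T (iNKT) cells sorted from the thymus were compared with iNKT cells sorted from the spleen, across all genes, in the 4 libraries with the tissue label THYMUS and the 4 with the label SPLEEN, which are 8 of the 15 RNAseq libraries of the series. Both groups came from untreated WT C57BL/6 mice aged 6 weeks, with no transgene or deleted allele in either group. The sort kept cells that bound the CD1d tetramer and TCRβ antibody and lacked B220, CD11b, CD11c and CD8. All iNKT subsets and stages of an organ that passed this gate entered 1 library, and cells with CD8 were left out. Both organs were pressed through a strainer, so digestion did not differ between the groups, as it did for the mesenteric and inguinal lymph nodes (mLN, 4 libraries; iLN, 3 libraries), which are given below as levels only. Each tissue had replicates labelled WT1 to WT4, with WT1 and WT2 in the batch labelled Second and WT3 and WT4 in the batch labelled First. The labels do not say whether a replicate was 1 mouse or a pool, so p-values measure the spread between these samples.

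iNKT cells are T cells with a nearly invariant TCR α-chain that recognise lipids presented on CD1d. They develop in the thymus from CD4+CD8+ double positive thymocytes, and then either stay in the thymus as long-lived resident cells or leave for spleen, liver and other organs. Effector subsets are known as NKT1 (T-bet, natural killer (NK) receptors, IFN-γ), NKT2 (high PLZF, IL-4) and NKT17 (RORγt, IL-17), and in C57BL/6 mice the resident cells of the thymus are known to be mostly NKT1. Retention in a tissue is known to rest on integrins, cadherins and chemokine receptors, and exit on S1P receptors and the Klf2 programme.

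Total expected counts were between 1152702 (replicate 2) and 8161474 in thymus and between 4919511 and 8670570 in spleen, and values are given as CPM, counts scaled to a common library size with edgeR's TMM factors. Of 48795 genes listed, 23003 had a count in these 8 libraries and 13600 passed the filter on low counts. A set of 5 predicted genes took 3.87% to 7.28% of the counts in the batch labelled Second and 22.2% to 33% in the batch labelled First. The set was chosen by gene name, by not being protein coding and by a high share of counts in any library. Overlap with rRNA repeats was not checked. With the 2 mitochondrial rRNA genes it is called rRNA-like below. Each batch held the same number of thymus as spleen libraries. Spleen replicate 1 stood apart. It held 143 CPM of Cd74 and 36.7 CPM of Pax5, both genes of B cells, against at most 9.20 and 6.75 CPM in the other spleen libraries. Cd74 was not called (adjusted p = 0.0535) and passed with a replicate block (0.00182). The summed level of 19 B cell markers was 119.5 to 211 CPM in thymus, 251 to 275 CPM in spleen replicates 2 to 4 and 858 CPM in spleen replicate 1. The same library held 9738 CPM of the predicted gene Gm26870, against 12.5 to 207 CPM in the other 7, a gene that was singled out after its values were seen. The 20 macrophage and monocyte markers summed to 16.9 to 22.3 CPM in thymus and 52.1 to 125 CPM in spleen, and the red cell markers to 3.03 to 15.1 and 25.4 to 119 CPM. Without spleen replicate 1, 127 of the 182 genes described next were called again.

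The label iNKT fitted the measured markers. None of 14 iNKT defining genes tested (among them Cd3e, Zbtb16, Trav11 and Klrb1c) was called at the threshold used here, with 7 at an unadjusted p under 0.05 and 2 called by DESeq2. Over all 13600 genes tested, 1444 had an unadjusted p under 0.05 by edgeR's test. Zbtb16, which encodes the iNKT master regulator PLZF, was at 112, 126, 117 and 129 CPM in thymus replicates 1 to 4 and at 78.7, 177, 142 and 148 CPM in spleen. The thymus values lay within the range of the spleen values (log2 fold change −0.17 ± 0.19 (SE), adjusted p = 0.879). Ncr1, a defining gene of NK cells, averaged 0.310 CPM in thymus and 0.662 CPM in spleen.

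In this comparison 182 of 13600 genes differed at a Benjamini-Hochberg adjusted p under 0.01 and a fold change over 1.5 by edgeR's quasi-likelihood test, which is 1.34% of the genes tested. Of these, 108 were higher in thymus (0.794% of the genes tested) and 74 higher in spleen (0.544%). The median change of the called genes was 4.09-fold among those higher in thymus and 4.62-fold among those higher in spleen, and all 182 had the same direction in the 4 pairs of same-numbered samples. The thymus and spleen libraries did not overlap for 105 of the 108 and 73 of the 74, against 8.56% of all genes tested. The genes were called on the difference between these same libraries, so shared direction and lack of overlap are no separate support. Leaving out 1 library gave between 114 and 147 calls, with 95 of the 182 called in all 8 such fits and 14 in none. The lowest counts were 114 without thymus replicate 1 and 115 without spleen replicate 4. Genes higher in thymus fell to 65 in both of these fits, to 71 without thymus replicate 2 and to 70 without thymus replicate 4, and genes higher in spleen to 49 without thymus replicate 1 or spleen replicate 2. The fit of the 8 libraries alone called 313 genes and DESeq2 407, which included all 182.

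**Figure D1:**
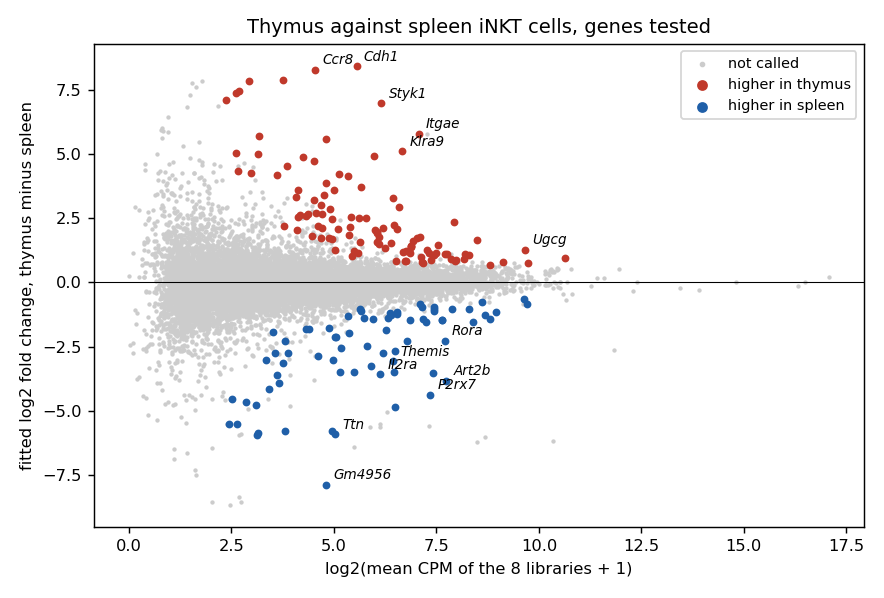
Fitted log2 fold change (thymus minus spleen, vertical axis) of each of the 13600 genes tested against its mean level over the 8 libraries, as log2(CPM + 1) (horizontal axis). Red points are the 108 genes higher in thymus, blue points the 74 higher in spleen and grey points genes that were not called; of the called genes, Cdh1 lies highest and Gm4956 lowest.

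Of the gene lists examined, that of NK receptors, the inhibitory and activating receptors that iNKT cells share with NK cells, held the most called genes. Of 28 list members tested, 11 were higher in thymus, 2 were higher in spleen and 15 were not called (46.4% of the list called), with a median log2 fold change of 2.88 against −0.01 over all genes tested. The median was the same with Klra10, which had no count in spleen, set to the bound that 3 counts allow. The 11 comprised Styk1, 5 members of the Klra (Ly49) family, Klrd1, Klrk1, Klre1, Cd244a and Fcer1g. Leaving out 1 library gave between 7 and 9 such genes, with 7 without thymus replicate 1 and 7 without thymus replicate 4, and DESeq2 gave 16. Most of the called genes lie in the NK gene complex on chromosome 6, from Klre1 (chr6:129577905-129585827, GRCm38) through the Klra genes to Styk1 (chr6:131299142-131353597).

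Styk1 encodes a kinase-like membrane protein known as NOK. Its level was 139, 175, 110.5 and 133 CPM in thymus replicates 1 to 4, against 0.689, 0.5997, 2.73 and 0.812 CPM in spleen. Every thymus library was above every spleen library (log2 fold change 6.97 ± 0.45, adjusted p = 3.03e-08). The lymph nodes resembled spleen in this gene, with at most 0.776 CPM in any mLN or iLN library.

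The Klra genes encode Ly49 receptors, most of which bind MHC class I. Klra9 (chr6:130178675-130193112) was at 229, 155, 189 and 208 CPM in thymus and at 1.67, 14.4, 5.22 and 2.84 CPM in spleen. The groups did not overlap (log2 fold change 5.10 ± 0.69, adjusted p = 0.000273). Klra1 was at 17.7, 30.1, 43.4 and 31 CPM in thymus and at 2.07, 0.899, 4.97 and 2.43 CPM in spleen, again without overlap (3.62 ± 0.58, adjusted p = 0.00105). Klra6, Klra5 and Klra3 averaged 15.7, 25.7 and 21.2 CPM in thymus and 0.311, 1.08 and 1.17 CPM in spleen. Their log2 fold changes were 5.70 (adjusted p = 0.00172), 4.52 (0.00577) and 4.19 (0.007). Of these calls, that of Klra3 was lost in all 8 fits that left out 1 library (adjusted p between 0.0155 and 0.039), that of Klra5 in 7 of 8 (between 0.00817 and 0.0612), and that of Klra6 without thymus replicate 1 (0.023) and without spleen replicate 1 (0.0114). Klra7 and Klra10 were not called (log2 fold changes 3.53 and 7.85, adjusted p = 0.0712 and 0.0239).

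Ly49 genes are near copies of each other, and RSEM shares fragments that align to several of them, so the level of a single Klra gene is less certain than that of the family. The likeness reaches into the flanking sequence, as the windows from 250 bases before to 50 after the RefSeq start (GRCm38.p6) of Klra3 (chr6:130337577-130337876, minus strand) and Klra9 (chr6:130193063-130193362, minus strand) show. Both are printed 5′ to 3′ because the genes rose together and could share reads; neither held a match to the motifs described below, so no letters are in capitals.
Klra3: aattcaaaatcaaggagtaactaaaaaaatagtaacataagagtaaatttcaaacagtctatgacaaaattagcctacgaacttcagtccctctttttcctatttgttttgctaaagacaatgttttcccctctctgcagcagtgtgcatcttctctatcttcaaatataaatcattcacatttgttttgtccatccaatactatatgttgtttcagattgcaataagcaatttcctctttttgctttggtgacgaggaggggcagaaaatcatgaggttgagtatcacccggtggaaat
Klra9: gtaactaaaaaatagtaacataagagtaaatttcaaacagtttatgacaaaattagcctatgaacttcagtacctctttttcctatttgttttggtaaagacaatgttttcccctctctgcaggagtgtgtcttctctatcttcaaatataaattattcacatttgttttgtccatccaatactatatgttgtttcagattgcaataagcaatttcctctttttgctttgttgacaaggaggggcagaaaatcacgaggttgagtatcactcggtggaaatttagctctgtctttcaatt
The aligned windows were 85.0% identical, and those of Klra1 and Klra9 48.9%.

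Other NK receptor genes were higher in thymus as well. Klrd1 encodes CD94, the partner of the NKG2 receptors, and was at 123, 99.0, 85.7 and 98.4 CPM in thymus against 35.1, 20.2, 20.1 and 24.5 CPM in spleen (log2 fold change 2.03 ± 0.34, adjusted p = 0.00153, or 0.0103 without thymus replicate 4). Klrk1 encodes NKG2D, which binds stress-induced ligands, and was at 269, 293, 262 and 266 CPM against 119.9, 85.5, 119 and 77.9 CPM (1.44 ± 0.19, adjusted p = 0.00012). Fcer1g encodes the signalling adaptor FcRγ and was at 58.0, 77.7, 46.4 and 48.6 CPM against 2.66, 6.45, 7.21 and 2.84 CPM (3.59 ± 0.43, adjusted p = 3.69e-05). For none of these genes did the tissues overlap. Cd244a, which encodes the SLAM family receptor 2B4, had 219 counts over the thymus libraries and 1 count in spleen, a depth-corrected ratio of 307 (95% counting interval 54.5 to 12167; adjusted p = 0.00109). Klre1 averaged 49.8 CPM in thymus and 7.62 CPM in spleen (2.86 ± 0.59, adjusted p = 0.00899); its call was lost in 7 of 8 fits without 1 library (0.00592 to 0.056) and in the fit with a replicate block (0.0118).

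Cd226 and Cd160 went the other way. Cd226 encodes DNAM-1, an activating receptor for nectin family ligands, and was at 77.3, 112, 69.2 and 60.8 CPM in thymus and at 208, 228, 214 and 185 CPM in spleen. Its libraries did not overlap (log2 fold change −1.42 ± 0.16, adjusted p = 2.4e-05). Cd160, a receptor of HVEM, averaged 56.9 CPM in thymus and 127 CPM in spleen (−1.15 ± 0.22, adjusted p = 0.00523), and was not called with the replicate block (0.0103) or in 6 of 8 fits without 1 library (0.00333 to 0.0301). Klrg1, a receptor of cadherins, averaged 0.623 CPM in thymus and 7.4 CPM in spleen and was not called (−3.30, adjusted p = 0.0817). Klrb1c, which encodes NK1.1, averaged 481 and 312 CPM and was not called either (0.62, adjusted p = 0.0345).

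Cytotoxic effector genes gave fewer calls, with 2 of 19 members tested higher in thymus, 0 higher in spleen and a median log2 fold change of 0.40. The count higher in thymus was 7 by DESeq2, 8 in the fit of the 8 libraries alone, 3 with the replicate block and 0 or 1 with 1 library left out, and 11 of the 19 had an unadjusted p under 0.05. The called pair was Ctsw, which encodes cathepsin W (158 ± 54.8 against 73.4 ± 37.3 CPM, mean ± SD, n = 4; log2 fold change 1.15, adjusted p = 0.00454; its libraries overlapped), and Cst7, which encodes the cathepsin inhibitor cystatin F (32.3 ± 8.52 against 9.52 ± 4.45 CPM; 1.79, adjusted p = 0.00491). These calls were kept in 1 and 2 of 8 fits without 1 library (adjusted p up to 0.0251 and 0.0253). Gzmb, which encodes the protease granzyme B, was at 389, 276, 259 and 277 CPM in thymus and at 5.71, 4.95, 5.97 and 5.28 CPM in spleen. These values lay far apart, yet the gene missed the threshold in the fit over 15 libraries (5.78 ± 1.06, adjusted p = 0.0129). In the lymph nodes single libraries ranged from 0.415 to 16.4 CPM in mLN and from 0.537 to 15.5 CPM in iLN. It passed with a replicate block (adjusted p = 0.00535), as it did in the fit of the 8 libraries alone (6.89e-10), by DESeq2 (6.68e-06), without the filter on low counts (6.22e-82) and after thinning to the smallest library (6.31e-08), and missed it under the other alternatives (0.0115 to 0.243). Gzma, which encodes granzyme A, was at 45.1 to 68.9 CPM in thymus and 8.93 to 12.6 CPM in spleen (2.45, adjusted p = 0.0248).

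**Figure D2:**
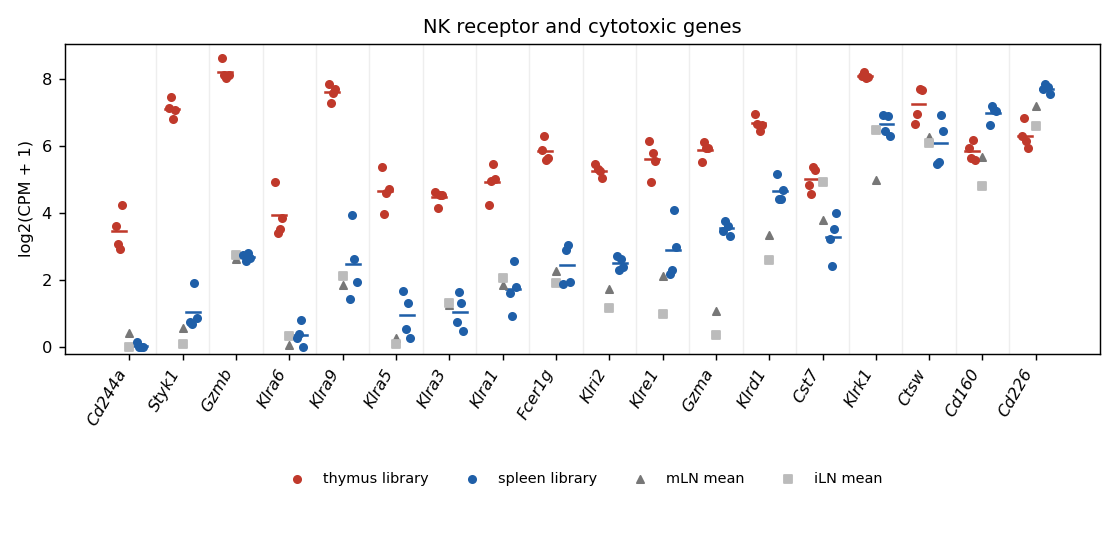
Level of 18 NK receptor and cytotoxic genes, as log2(CPM + 1), in the 4 thymus libraries (red points) and the 4 spleen libraries (blue points), ordered by fitted change; horizontal bars are means over the 4 libraries, and grey triangles and squares the mLN and iLN means. Red points lie above blue points for all but Cd226 and Cd160 at the right, and the points of Ctsw overlap.

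The markers of NK cells themselves summed to 799 to 842 CPM in thymus and 296 to 418 CPM in spleen, a sum that includes Gzmb and Klrb1c. Ncr1 and Eomes, which define NK cells, were each at or under 1.47 CPM in all 8 libraries.

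Genes of adhesion and cell junctions held the largest change among the called genes. Of 26 members tested, 5 were higher in thymus, 1 was higher in spleen and 20 were not called (median log2 fold change 0.20). Cdh1 (chr8:106603351-106670246) encodes E-cadherin, and Itgae (chr11:73090583-73147446) encodes CD103, the integrin α-chain that binds E-cadherin. Cdh1 was at 79.8, 82.1, 100.03 and 106 CPM in thymus and at 0.295, 0.2998, 0.249 and 0 CPM in spleen. The 1682 counts in thymus against 6 in spleen gave a depth-corrected ratio of 393 (95% counting interval 180.0 to 1071; adjusted p = 2.62e-06). Itgae was at 218, 301, 286 and 240.4 CPM in thymus and at 8.07, 1.5, 3.48 and 4.67 CPM in spleen, with no overlap (log2 fold change 5.78 ± 0.49, adjusted p = 5.78e-07). The lymph nodes parted in these genes: iLN averaged 199.6 CPM of Itgae and mLN 13.9 CPM, whereas Cdh1 averaged 1.52 and 1.74 CPM.

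Tjp1, which encodes the tight junction scaffold ZO-1, was at 19.8, 31.5, 25.3 and 23.5 CPM in thymus and was counted in 1 spleen library only, at 0.406 CPM. The 420 counts against 2 gave a ratio of 294 (80.9 to 2436; adjusted p = 0.00013). Itga1 encodes CD49a, a collagen-binding integrin known from resident lymphocytes, and was at 100.3, 140.1, 86.8 and 90.7 CPM against 33.2, 21.4, 23.4 and 30.03 CPM (1.92 ± 0.25, adjusted p = 0.000121). Jaml, a junctional adhesion molecule, averaged 42.9 CPM in thymus and 7.75 CPM in spleen (2.67, adjusted p = 0.0059; kept in 1 of 8 fits without 1 library, adjusted p up to 0.0338). The member higher in spleen was Itgb3, which encodes the integrin β3 chain. It was at 110.1, 101.2, 106 and 99.9 CPM in thymus and at 334, 246, 273 and 317 CPM in spleen, without overlap (−1.48 ± 0.20, adjusted p = 0.000148).

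E-cadherin is also a protein of thymic epithelium. The 20 markers of that cell type, Cdh1 among them, summed to 142 to 204 CPM in thymus and 73.7 to 121 CPM in spleen. Of the 7 such markers tested, Cdh1 alone was called. A log2 fold change above 0 was found for 3 and below 0 for 4 (median −0.03). Krt8 and Prss16, which define these cells, did not exceed 1.65 CPM in any of the 8 libraries.

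Chemokine receptors divided by organ. Of 16 tested, 1, Ccr8, was higher in thymus, 4 were higher in spleen, among them Ccr2, Ccr9 and Cxcr6, and 11 were not called (median log2 fold change −0.43). Ccr8, the receptor of CCL1, was at 30.04, 35.2, 62.1 and 50.3 CPM in thymus and at 0.0985, 0, 0 and 0.406 CPM in spleen. The 784 counts against 3 gave a ratio of 366 (125 to 1778; adjusted p = 2.49e-06), and iLN (43.8 CPM on average) was near thymus and mLN (10.04 CPM) between.

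Ccl5, a chemokine of effector lymphocytes, was the only 1 of 17 cytokine and chemokine genes tested that was called, and it was higher in spleen. It was at 22.2, 16.9, 22.3 and 29 CPM in thymus and at 74.6, 114, 232 and 199 CPM in spleen (−2.68 ± 0.26, adjusted p = 2.49e-06). Ccr9, the receptor of the thymic and gut chemokine CCL25, was at 64.9, 60.1, 22.5 and 16.8 CPM in thymus and at 204, 211, 134 and 162 CPM in spleen (−2.28 ± 0.21, adjusted p = 1.7e-06). In both tissues its level was higher in the batch labelled Second, and the tissues did not overlap. Lymph nodes again parted, with 335 CPM of Ccr9 in mLN and 33.9 CPM in iLN.

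Ccr2, the receptor of CCL2, was at 65.7 to 98.3 CPM in thymus and 189 to 281 CPM in spleen (−1.56 ± 0.15, adjusted p = 2.49e-06). Cxcr6, the receptor of CXCL16, was at 189, 296, 420.2 and 316 CPM in thymus and at 385, 643, 888 and 792 CPM in spleen. Thymus replicate 3 was above spleen replicate 1, so the groups overlapped, while each pair of the same number went the same way (−1.14 ± 0.20, adjusted p = 0.00223). The call of Cxcr6 was lost without thymus replicate 1 (0.0155), thymus replicate 4 (0.0158) or spleen replicate 2 (0.0164).

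Of 18 genes of egress and homing tested, 1 was called in each direction (median log2 fold change −0.05). Klf3, which encodes a zinc finger repressor of the Klf family, was at 202, 136, 170.4 and 170.3 CPM in thymus and at 469, 464, 470.3 and 599 CPM in spleen (−1.56 ± 0.19, adjusted p = 4.16e-05). Gpr183 encodes EBI2, the receptor of oxysterols that guides cells within lymphoid organs, and averaged 44.6 CPM in thymus and 18.2 CPM in spleen (1.28 ± 0.25, adjusted p = 0.00523). Its call was lost with the replicate block (0.0106) and in 6 of 8 fits without 1 library (0.00483 to 0.0304). S1pr1, the receptor that leads T cells out of the thymus, was at 11.7 to 22.3 CPM in thymus and 22.8 to 46.2 CPM in spleen and was not called (−0.85 ± 0.23, adjusted p = 0.0535). Foxo1, a factor upstream of the exit programme, was closer to the threshold than S1pr1 but was not called (−0.70, adjusted p = 0.0112). Of the 18 genes, 9 had a log2 fold change above 0 and 9 below.

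**Figure D3:**
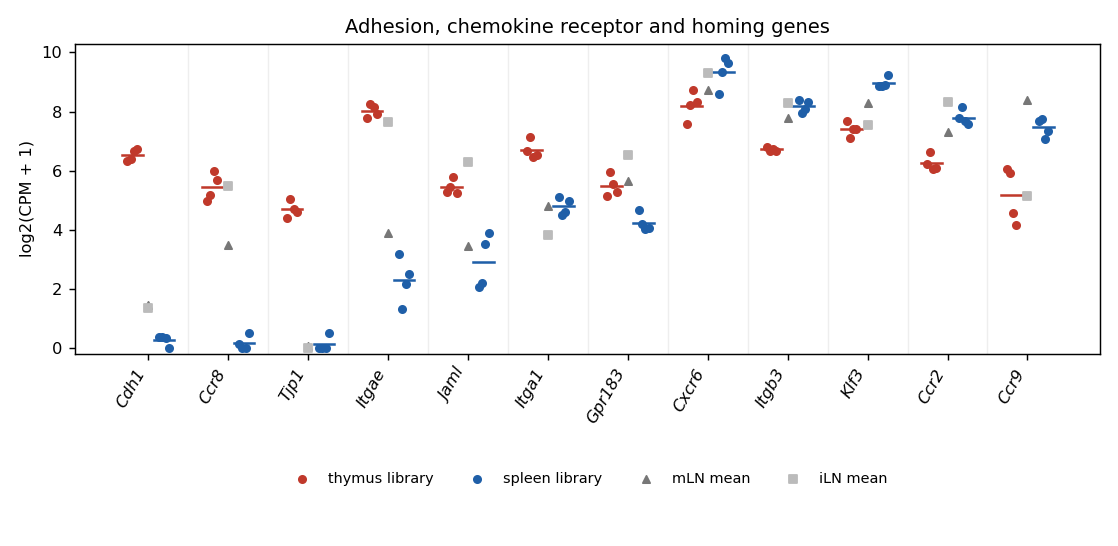
Level of 12 called genes of adhesion, chemokine receptors and homing, as log2(CPM + 1), in the 4 thymus (red) and 4 spleen (blue) libraries, with bars at the means and grey symbols at the mLN and iLN means. Cdh1, Ccr8 and Tjp1 are near 0 in all spleen libraries, and the points of Cxcr6 overlap.

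P2rx7, Art2b and Art2a-ps, genes of the response to extracellular NAD and ATP, were far higher in spleen. ART2 enzymes are known to use extracellular NAD to ADP-ribosylate the ATP-gated channel P2X7, which opens it. Of 14 purinergic and NAD-sensing genes tested, these 3 were called higher in spleen, 0 were higher in thymus and 11 were not called (median log2 fold change −0.54). All 3 were called in each of the 8 fits that left out 1 library and within each batch alone.

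P2rx7 (chr5:122643911-122691432), which encodes the channel, was at 16.3, 13.2, 10.2 and 18.9 CPM in thymus and at 268, 333, 272 and 363 CPM in spleen. The lowest spleen library was above every thymus library by a wide margin (−4.38 ± 0.35, adjusted p = 3.66e-07). Art2b (chr7:101576970-101585600), which encodes the ecto-enzyme ART2.2, was at 25.5, 47.7, 16.5 and 25.9 CPM in thymus and at 492, 476, 277 and 343 CPM in spleen (−3.83 ± 0.30, adjusted p = 3.24e-07). Art2a-ps, its neighbour (chr7:101552453-101560865) annotated as a polymorphic pseudogene, was at 10.2, 4.40, 2.75 and 4.54 CPM in thymus and at 203, 231, 91.0 and 166 CPM in spleen (−4.86 ± 0.31, adjusted p = 3.03e-08). These neighbours are near copies and can share reads, so their levels are not independent of each other. In the lymph nodes, mLN was near spleen for P2rx7, Art2b and Art2a-ps (322, 461 and 159 CPM) and iLN was lower (47.2, 74.0 and 17.2 CPM). Nt5e, which encodes the AMP-cleaving enzyme CD73, averaged 62.5 CPM in thymus and 28.0 CPM in spleen. It was not called (1.16, adjusted p = 0.0107), and passed with the replicate block (0.00968).

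The RefSeq promoter window of Art2b (chr7:101581112-101581411, minus strand, GRCm38.p6, from 250 bases before to 50 after the start) is printed because this gene had a 14.2-fold change; capitals mark, in order, matches to the Runx letters TGTGGT, the AP-1 letters TGANTCA and the T-box letters AGGTGTG, each searched on both strands.
Art2b: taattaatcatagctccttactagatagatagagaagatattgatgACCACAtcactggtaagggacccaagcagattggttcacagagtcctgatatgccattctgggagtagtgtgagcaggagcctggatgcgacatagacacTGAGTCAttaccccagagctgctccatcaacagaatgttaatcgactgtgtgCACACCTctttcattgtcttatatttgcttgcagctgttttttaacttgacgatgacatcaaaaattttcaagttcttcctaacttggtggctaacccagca
Over all genes with a RefSeq window, the Runx letters were found for 15 of 53 genes higher in spleen (28.3%) and 15 of 84 higher in thymus (17.9%), against 15.4% of 9126 genes tested and 16.8% of 32851 windows in the table. The T-box letters were in 9.43% and 4.76% (5.36% of genes tested, 5.84% of windows), the AP-1 letters in 11.3% and 13.1% (5.83%, 7.81%), and the ROR letters AGGTCA in 15.1% and 16.7% (14.9%, 16.3%). These letter matches are descriptions of sequence and were not tested.

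Survival genes showed a split within the list. GIMAP proteins are GTPases of lymphocyte survival, encoded by neighbouring genes on chromosome 6, and Bcl2 encodes the anti-apoptotic protein of that name. Of 27 genes tested, Gimap7, Gimap6 and Gimap4 were higher in spleen and Bcl2 higher in thymus, with 23 not called (median log2 fold change −0.26). Gimap7 (chr6:48718621-48724636) was at 5.79, 9.53, 21.98 and 22.1 CPM in thymus and at 93.8, 127, 222 and 201 CPM in spleen. The tissues did not overlap, and both had lower values in the batch labelled Second (−3.49 ± 0.30, adjusted p = 6.18e-07). Gimap6 and Gimap4 changed less, from 289 to 490.1 CPM and from 622 to 960.3 CPM on average (−0.76, adjusted p = 0.0031, and −0.63, adjusted p = 0.00524). The Gimap6 call was lost without thymus replicate 1 (0.0208), thymus replicate 3 (0.0177), spleen replicate 2 (0.0167) or spleen replicate 4 (0.0153), and that of Gimap4 in 7 of 8 such fits (up to 0.0291) and with the replicate block (0.0101). Gimap8 and Gimap3 were lower in thymus by −0.87 and −0.83 on the log2 scale and were not called (adjusted p = 0.0189 and 0.0214). Bcl2 was at 479, 362, 316 and 344 CPM in thymus and at 237, 213, 174 and 170.2 CPM in spleen, without overlap (0.92 ± 0.18, adjusted p = 0.00672). Its call was lost with the replicate block (0.0104) and in all 8 fits without 1 library (0.0141 to 0.0409).

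Among 41 lineage factors tested, 3 were higher in thymus and 2 higher in spleen, with a median log2 fold change of −0.08. DESeq2 called 7 and 8, the fit of the 8 libraries alone 5 and 5, and 22 of the 41 had an unadjusted p under 0.05. Rora encodes the nuclear receptor RORα. It was at 91.5, 73.3, 69.8 and 51.9 CPM in thymus and at 357, 413, 298 and 308 CPM in spleen, far beyond the spread of either tissue (−2.27 ± 0.18, adjusted p = 3.24e-07). Runx1, a runt domain factor required in iNKT cell development, was at 126, 129.8, 101.1 and 95.2 CPM in thymus and at 257, 292, 166 and 214 CPM in spleen (−1.03 ± 0.14, adjusted p = 0.000231). Tox, a factor of early thymic selection, was at 151, 80.7, 89.6 and 92.6 CPM in thymus against 26.2, 28.5, 37.8 and 29.8 CPM in spleen (1.75 ± 0.26, adjusted p = 0.00039). Hivep3, known from early iNKT cell development, was at 125, 65.3, 104 and 119 CPM against 35, 20.1, 18.4 and 32.5 CPM (1.96 ± 0.30, adjusted p = 0.000553). None of these 4 genes had overlapping tissues. Myc averaged 106 CPM in thymus and 42.6 CPM in spleen (1.34 ± 0.27, adjusted p = 0.00709), a call kept in 1 of 8 fits without 1 library (0.00507 to 0.0409).

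Tbx21, which encodes T-bet, the defining factor of NKT1 cells, was not called. Its level was 30.3, 59.4, 78.3 and 98.4 CPM in thymus and 46.3, 26.7, 112 and 107 CPM in spleen, so the tissues overlapped and both were higher in the batch labelled First (−0.04 ± 0.29, adjusted p = 0.984). Gata3, the factor of type 2 cells, averaged 75.4 and 93.9 CPM and overlapped as well (−0.31, adjusted p = 0.731).

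Lists named for the iNKT subsets overlap with the groups above. Of 25 NKT1 genes tested, 9 were higher in thymus and 1, Ccl5, in spleen (median log2 fold change 0.79). The 9 were Klrd1, Klrk1, Klre1, Klra1, Klra9, Fcer1g, Itga1, Bcl2 and Ly6c2. Those were mostly NK receptors, and Tbx21 was not among them. Ly6c2, which encodes the surface protein Ly6C and has a near copy in Ly6c1, averaged 199 CPM in thymus and 60.9 CPM in spleen (1.71 ± 0.26, adjusted p = 0.000606). Ly6c1 was called the other way, higher in spleen. That call was kept in 2 of 8 fits without 1 library, with log2 fold changes from −3.07 to −2.56. Near copies can share reads, so the levels of Ly6c1 and Ly6c2 are not independent. Of 20 NKT2 genes tested, Izumo1r was higher in thymus and Ccr9 in spleen (median −0.40), and of 17 NKT17 genes, Rora and Cxcr6 were higher in spleen (median −0.14). Izumo1r encodes folate receptor 4 and averaged 123 CPM in thymus and 42.8 CPM in spleen (1.53 ± 0.22, adjusted p = 0.000292).

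Of 24 genes of iNKT precursors and immature thymocytes tested, Rag1, Itm2a and Hivep3 were higher in thymus, and Themis and Ccr9 were higher in spleen (median −0.14). Rag1 encodes a subunit of the V(D)J recombinase. It was at 19.2, 22, 5.5 and 5.87 CPM in thymus and was counted in 1 spleen library only, at 0.150 CPM. The 237 counts against 1 gave a ratio of 332 (59.0 to 13163; adjusted p = 0.00118, and 0.0103 without thymus replicate 1). The thymus libraries of the batch labelled Second were higher in Rag1 than those of the batch labelled First. Markers of CD4+CD8+ thymocytes summed to 133 to 333 CPM in thymus and 276 to 549 CPM in spleen, a sum that includes Themis. Of the 10 such markers tested, 6 had a log2 fold change above 0 and 4 below (median 0.49). Rag2 did not exceed 0.733 CPM in any library. Itm2a, a membrane protein of developing T cells, averaged 44.1 CPM in thymus and 5.57 CPM in spleen (3.03 ± 0.49, adjusted p = 0.00107). In bulk samples such as these, fewer cells of a type and less RNA per cell cannot be told apart.

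Signalling lists held few called genes. The shares were 6.45% for proximal TCR signalling, 3.23% for negative regulators and 5.13% for TCR response genes. Of 31 genes of proximal TCR signalling tested, Themis and Rasgrp1 were higher in spleen and 0 were higher in thymus (median −0.13); 11 had an unadjusted p under 0.05, and DESeq2 called 4 higher in spleen and 1 in thymus. Themis, an adaptor that tunes TCR signals during thymic selection, was at 16.7, 28.6, 13.5 and 17.2 CPM in thymus and at 104, 228, 139 and 146 CPM in spleen. The highest thymus library was well under the lowest spleen library (−3.08 ± 0.26, adjusted p = 5.57e-07). Rasgrp1, the exchange factor that activates Ras downstream of the TCR, averaged 205 CPM in thymus and 422 CPM in spleen (−1.03 ± 0.14, adjusted p = 0.000203). Of 31 negative regulators, Ptpn6 alone was called, and DESeq2 called 2, both higher in thymus. Ptpn6 encodes the phosphatase SHP-1 and was at 129, 201, 243 and 272 CPM in thymus and at 58.2, 51, 68.6 and 67.4 CPM in spleen, without overlap (1.75 ± 0.22, adjusted p = 9.47e-05). Of 39 TCR response genes, Myc and Rgs2 were higher in thymus and 0 higher in spleen (median 0.07). DESeq2 called 8 higher in thymus and 4 in spleen, and 15 had an unadjusted p under 0.05, 11 of them toward thymus. Rgs2, a regulator of G protein signalling, was at 115, 166, 174 and 144 CPM in thymus and 34, 44.8, 35.8 and 27.4 CPM in spleen (2.08 ± 0.21, adjusted p = 3.29e-06).

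Of 32 cytokine receptor genes tested, 1 was called in each direction (median 0.08). Il2ra encodes CD25, the high affinity α-chain of the IL-2 receptor. It was at 14.9, 5.13, 8.24 and 11.5 CPM in thymus and at 103, 138, 117 and 155 CPM in spleen. Spleen values lay above thymus values in each library (−3.58 ± 0.26, adjusted p = 1.12e-07), and iLN was higher than either, at 241 CPM on average. Il2ra is also a marker of regulatory T cells, whose 10 markers summed to 320.4 to 410.0 CPM in thymus and 506 to 599.7 CPM in spleen. Of 9 such markers tested, 1 was called in each direction and 7 were not called. The log2 fold change was below 0 for 8 and above 0 for 1. Ifngr1, a chain of the IFN-γ receptor, averaged 216 CPM in thymus and 92.0 CPM in spleen (1.25 ± 0.22, adjusted p = 0.00236). Its call was lost without thymus replicate 2 (0.0144), thymus replicate 4 (0.0105) or spleen replicate 2 (0.0143).

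Among 39 costimulatory and inhibitory receptors tested, Cd226, Cd160 and Tnfrsf25 were higher in spleen and Cd244a higher in thymus (median −0.16). Tnfrsf25 encodes DR3, the receptor of TL1A, and averaged 2.39 CPM in thymus and 22.8 CPM in spleen (−3.13 ± 0.47, adjusted p = 0.000505). Of 64 interferon-stimulated genes, Oas3 and Ly6c2 were higher in thymus and 0 higher in spleen (median 0.11). Oas3, an oligoadenylate synthetase of the antiviral response, averaged 137 and 64.7 CPM (1.17, adjusted p = 0.00753). The call of Oas3 was lost with the replicate block (0.0128) and in 7 of 8 fits without 1 library (0.00668 to 0.0419).

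**Figure D4:**
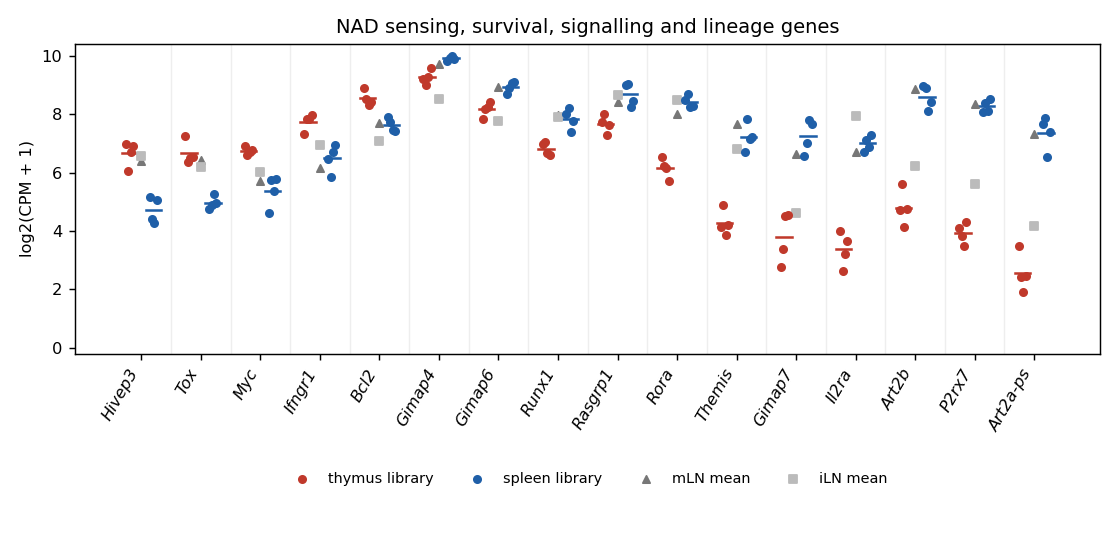
Level of the 16 called genes of NAD sensing, survival, TCR signalling, cytokine receptors and lineage, as log2(CPM + 1), in the 4 thymus (red) and 4 spleen (blue) libraries, with bars at the means and grey symbols at the mLN and iLN means. P2rx7, Art2b, Art2a-ps, Il2ra, Gimap7 and Themis show the widest gaps, with all spleen points above all thymus points.

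Of the genes with the smallest adjusted p outside these groups, Ssh2, F2rl1 and St8sia1 were higher in thymus. Ssh2 encodes slingshot phosphatase, which activates the actin-severing protein cofilin. It was at 611, 562, 495 and 514 CPM in thymus and at 174, 197, 155 and 171 CPM in spleen, a modest change with a small spread (1.65 ± 0.12, adjusted p = 1.12e-07). F2rl1, which encodes the protease-activated receptor PAR2, was at 79.8, 68.2, 65.7 and 85.7 CPM against 2.26, 4.95, 6.21 and 4.06 CPM (4.14 ± 0.30, adjusted p = 1.23e-07). St8sia1, a sialyltransferase that makes the ganglioside GD3, was at 99.5, 108, 91.5 and 68.5 CPM against 5.51, 9.29, 7.21 and 6.29 CPM (3.70 ± 0.32, adjusted p = 6.07e-07). No thymus library overlapped a spleen library in these genes.

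Other genes with a large change toward thymus were Hhex, Capg, Tgfa, Apol9b, Dmrta1 and Ifitm2. Hhex, a homeobox repressor, was at 42.6, 49.1, 68.7 and 50.2 CPM in thymus and 0.394, 0.2998, 3.48 and 1.62 CPM in spleen (5.58 ± 0.76, adjusted p = 0.000203). Capg, an actin filament capping protein, was at 63.0, 104, 143 and 167 CPM against 3.84, 1.2, 8.45 and 2.23 CPM (4.92 ± 0.42, adjusted p = 6.07e-07). The remaining 4 were lower: Tgfa averaged 15.3 CPM in thymus, and Apol9b, Dmrta1 and Ifitm2 10.2, 8.29 and 10.03 CPM, against at most 0.746 CPM in any spleen library. Their adjusted p was 0.00101, 0.00236, 0.0033 and 0.009997. The call of Tgfa was lost without thymus replicate 1 (0.0102), those of Apol9b and Dmrta1 in 4 of 8 fits each (up to 0.0164 and 0.0221) and that of Ifitm2 in all 8 (0.0164 to 0.041).

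Toward spleen, the predicted gene Gm4956 had the largest change among called genes. It was at 0.492, 0, 0 and 0 CPM in thymus and at 34.9, 56.2, 51.2 and 73.2 CPM in spleen. Its 1296 counts against 4 gave a ratio of 231 (90.2 to 850.5; adjusted p = 3.05e-06). Ttn, known as the giant protein of muscle, was at 0.862, 0, 0.550 and 1.89 CPM in thymus against 55.5, 80.5, 65.4 and 49.3 CPM in spleen (−5.91 ± 0.54, adjusted p = 1.23e-06). Mmp9, a secreted gelatinase, was at 0.739, 1.47, 0.824 and 1.51 CPM against 39.5, 61.2, 67.6 and 68.2 CPM (−5.80 ± 0.84, adjusted p = 0.000369). Tmem273 and Irak3, a kinase-like inhibitor of Toll-like receptor signalling, averaged 25.6 and 8.92 CPM in spleen and 0.469 and 0.505 CPM in thymus (adjusted p = 9.3e-05 and 0.000482). Neither overlapped between tissues.

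Atp6v0d2 and Lyz2 are genes of macrophages that were higher in spleen. Atp6v0d2, a subunit of the vacuolar proton pump, was at 0, 0, 0.550 and 0.379 CPM in thymus and at 15.9, 10.9, 19.1 and 14.4 CPM in spleen (−5.94 ± 0.94, adjusted p = 0.000862). Lyz2, which encodes lysozyme, was at 43 CPM in spleen replicate 1, 2.64 to 9.59 CPM in the other spleen libraries and at most 0.733 CPM in thymus (−5.86 ± 1.22, adjusted p = 0.00997). The Lyz2 call was kept in 1 of 8 fits without 1 library (0.0056 to 0.0575) and lost with the replicate block (0.0262). Of 20 macrophage and monocyte markers, 8 were at 0 in all thymus libraries and 2 in all spleen libraries; the part of such cells in these changes was not tested. Fbxl21, Gm6637, 4930431P03Rik, Gcnt2, Gm16976 and Plekhf1 completed the large changes toward spleen, with log2 fold changes from −5.53 to −3.92 and calls kept in 1 to 3 of 8 fits without 1 library (highest adjusted p 0.056, for Gcnt2). Those of Gcnt2 and Gm16976 were also lost with the replicate block (0.0207 and 0.013).

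Several lists had no called gene. Their counts at an unadjusted p under 0.05 stand beside 1444 of all 13600 genes tested by edgeR. Of 49 cell cycle genes tested, 38 had a log2 fold change above 0 (median 0.70), 11 an unadjusted p under 0.05, all toward thymus, and DESeq2 called 1. Mki67, the proliferation marker, was at 120.2, 63.1, 21.98 and 37.3 CPM in thymus and at 46.1, 77.7, 7.46 and 20.3 CPM in spleen, so the tissues overlapped (0.74 ± 0.52, adjusted p = 0.735). Of 82 cytosolic ribosomal protein genes, 79 were above 0 (median 0.38), 34 had an unadjusted p under 0.05 and DESeq2 called 1; without spleen replicate 3 edgeR called 4. Of 25 genes of MHC class I presentation, 21 were below 0 (median −0.22), with 6 at an unadjusted p under 0.05 and 1 called by DESeq2. Glycolysis genes (23 tested; median 0.16) had 7 at an unadjusted p under 0.05 and 1 called by DESeq2, heat shock and chaperone genes (17 tested; median 0.13) had 3 and 1, and the 13 respiratory chain genes of mitochondrial DNA (median −0.12) had 0 and 0.

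**Figure D5:**
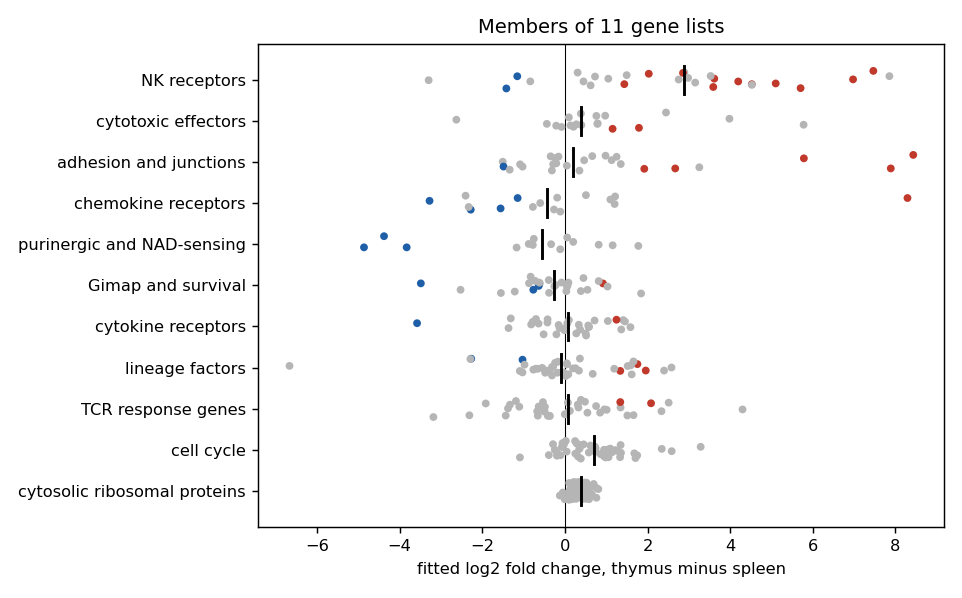
Fitted log2 fold change (thymus minus spleen, horizontal axis) of each tested member of 11 gene lists (vertical axis). Red and blue points are genes called higher in thymus and in spleen, grey points were not called, and black bars are medians; the NK receptor list has its median at 2.88, and the cell cycle and ribosomal protein lists lie mostly above 0 with no called member.

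The lymph node libraries place the called genes further. The means used here were not adjusted for batch, which was not balanced over the iLN libraries. The lymph nodes were also digested, whereas thymus and spleen were not. On the scale of log2(CPM + 1), 56 of the 108 genes higher in thymus had both the mLN and the iLN mean nearer to spleen, 28 had both nearer to thymus, 20 had only mLN nearer to spleen and 4 only iLN. Of the 74 genes higher in spleen, 35 had both lymph nodes nearer to spleen, 7 both nearer to thymus, 26 only mLN nearer to spleen and 6 only iLN. Styk1, Cdh1 and Tjp1 were among those low in both lymph nodes. Itgae, P2rx7 and Art2b had only iLN on the thymus side, and Ccr8 had both lymph nodes there.

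The TCR gene segments that the reads covered were compared as shares. Trav11 and its near copy Trav11d, the Vα14 segment of iNKT cells, took 88.1% ± 1.96 (SD, n = 4) of thymus Trav counts and 86.9% ± 1.76 of those of spleen. Trbv genes held 39 (thymus replicate 2) to 319 counts per library in thymus and 291 to 436 in spleen. Trbv13-2, the Vβ8.2 segment, took 39.0%, 46.2%, 43.5% and 44.8% of these counts in thymus and 42.2%, 56.4%, 46.97% and 47.3% in spleen. The groups overlapped, with a difference of −4.83 percentage points (two-sided exact permutation test, p = 0.229, adjusted over 5 genes 0.429). In thymus replicate 2 the 95% Wilson interval for this share ran from 31.6% to 61.4%, and such intervals cover counting error only. Trbv29, the Vβ7 segment, took 22.7%, 10.3%, 16% and 10.03% in thymus and 7.11%, 6.53%, 12.3% and 7.54% in spleen. That difference was 6.37 points (exact permutation test, p = 0.0857, adjusted 0.429). It was 3.30 points without replicate 1 of both tissues, 3.09 points in the batch labelled First and 9.66 points in the batch labelled Second. Trbv13-1, Trbv13-3 and Trbv1 differed by −1.62, 1.54 and 2.08 points (exact permutation tests, adjusted p = 0.571, 0.429 and 0.536). With 4 samples against 4 the smallest p such a test can give is 0.0286, and adjustment cannot lower it. That is above the threshold used for calls, so no share could pass. These tests therefore cannot decide whether the shares differed. Within pairs of the same number, the share of Trbv13-2 was higher in spleen and that of Trbv29 higher in thymus in 4 of 4 pairs. Each gave an exact paired permutation p of 0.125 (adjusted 0.3125), which is the smallest that 4 pairs can give, so no share could pass in the paired test.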

How the data were processed

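RNAseq libraries of sorted iNKT cells were prepared with a NuGEN Ovation Ultralow kit, which does not mark strand, so overlapping and antisense genes cannot be told apart. The authors trimmed paired-end reads with cutadapt 1.7.1 and ran RSEM 1.2.31 with Bowtie2 2.2.9 on GRCm38, and deposited, for each gene, a TPM value and an expected count, which RSEM estimates from the fragments with no normalization or filter. The deposited TPM values were used for an alternative to the Trbv shares only.

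Expected counts were rounded to whole numbers. All 15 libraries were fitted with edgeR 4.0.16 (filterByExpr, TMM, robust quasi-likelihood test, R 4.3.3, limma 3.58.1) with tissue and batch as factors, so the lymph nodes share the estimate of the spread. Calls required a fold change over 1.5 and a Benjamini-Hochberg adjusted p under 0.01. The fit was tested on simulated counts with known changes. Ratios of genes with at most 12 counts in a tissue have exact 95% counting intervals. Shares were compared by exact permutation tests, and Wilson intervals cover counting error only. Coordinates are from GENCODE vM21 and promoter windows from RefSeq (GRCm38.p6), which matched 137 of the 182 called genes.

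Named genes were the 15 called genes with the largest change in each direction (at least 5 CPM in the higher tissue, same direction in every pair), the 5 with the smallest adjusted p in each direction, and called or defining members of fixed gene lists. A called gene is not reported here. The libraries, lists and tests were chosen with earlier results of these data known. Same-numbered thymus and spleen samples deviated together from their tissue means (r = 0.156, 0.123, 0.25 and 0.235 for numbers 1 to 4). Batch means were not removed, so these values hold the shared batch. The other-numbered spleen sample of the same batch gave r = 0.132, 0.0843, 0.165 and 0.226. The labels of same-numbered samples share a unit name, and the numbers were taken to pair the samples. Alternatives were RLE normalization, no filter, a mean of at least 5 CPM, no batch covariate, a replicate block, the 8 libraries alone, thinning to the smallest library, removal of rRNA-like genes, each batch alone, each library left out, and DESeq2 1.42.0. The remaining steps ran in Python 3.11.15, with figures from matplotlib 3.10.9, tests from scipy 1.17.1 and tables from pandas 2.3.3 (numpy 2.4.6).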

Additional observations from a re-analysis of the deposited data

Results flagged for a closer look

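In each tissue, the library with the highest or lowest value was compared with the other 3 by Dixon's ratio. Of 420 groups of values tested over the named genes, 28 passed (6.67%), and about 1 in 20 pass by chance. Most of those in named genes concerned a tissue near 0, where 1 or a few reads set the value. The spleen libraries that stood apart in this way were replicate 3 for Styk1 (2.73 CPM), replicate 4 for Cdh1 (0 CPM) and Tjp1 (0.406 CPM), replicate 1 for Cd244a (0.0985 CPM) and Apol9b (0.0985 CPM), and replicate 2 for Rag1 (0.15 CPM) and Dmrta1 (0.15 CPM). In thymus, replicate 1 stood apart for Gm4956 (0.492 CPM) and replicate 4 for 4930431P03Rik (1.51 CPM).

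At higher levels, thymus replicate 1 was above the other thymus libraries for Tox (151 CPM against 80.7 to 92.6), Gzmb (389 CPM against 259 to 277) and Dmrta1 (15 CPM against 5.13 to 6.60). Spleen replicate 4 was above the others for Klf3 (599 CPM against 464 to 470.3), and spleen replicate 1 for Klrc2, which encodes an NKG2 receptor (119 CPM against 75.9 to 81.0). Thymus replicate 1 was below the other thymus libraries for St6gal1 (122 CPM against 151 to 153), and thymus replicate 4 above them for Asb2 (11.4 CPM against 5.17 to 5.87). In none of these cases did the library that stood apart bring the tissues to overlap.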

How the results depend on the processing

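Of the 182 called genes, 177 were tested after thinning, 179 under the filter on mean CPM and 182 under each other alternative, and 0 of those tested changed direction. With 182 genes called (108 higher in thymus, 74 in spleen), no filter on low counts gave 393 (210 and 183), the 8 libraries alone 313 (180 and 133), DESeq2 407 (232 and 175), thinning to the smallest library 83 (43 and 40), batch First alone 45 (23 and 22) and batch Second alone 27 (11 and 16). Without the batch covariate 123 genes were called, with 67 higher in thymus. Leaving out 1 library gave 114 to 147 genes, 65 to 86 higher in thymus and 49 to 61 higher in spleen. RLE normalization gave 179, a mean of at least 5 CPM 220 and removal of rRNA-like genes 177. The replicate block gave 174 genes (159 of the 182); it changed no call of a named gene beyond those given with their values in the report. For the Trbv shares the exact permutation test could not go below p = 0.0286, and the exact paired permutation test not below p = 0.125. Neither test could make a call at the threshold used. DESeq2 also gave more calls in lists described above by edgeR alone, given here as higher in thymus and higher in spleen. It called 5 and 2 interferon-stimulated genes, 2 and 5 costimulatory and inhibitory receptors, and 1 and 6 survival genes. Subset lists had 12 and 1 NKT1 genes, 3 and 1 NKT2 genes, and 1 and 2 NKT17 genes. Counts were 5 and 2 for iNKT precursor and immature thymocyte genes, and 1 and 3 for egress and homing. They were 1 and 1 for cytokines and chemokines, 2 and 1 for cytokine receptors, and 1 and 3 for purinergic and NAD-sensing genes. Marker lists had 0 and 2 for B cells, 2 and 1 for NK cells, and 1 and 2 for regulatory T cells. For genes that were not called, the log2 fold change of Tbx21 ran from −0.27 to 0.085 with 1 library left out and was 0.26 in batch Second alone, and that of Zbtb16 ran from −0.36 to 0.063. The causes were not tested. Fewer samples and lower depth were part of the settings with fewer calls, and the depth of thymus replicate 2 limits genes under a few CPM and the Trbv shares.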

Other observations

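Predicted genes set 2 libraries apart, and were singled out after their values were seen. Spleen replicate 1 held 9738 CPM of Gm26870, 3117 of Gm10719, 2741 of Gm10800 and 1194 of Gm10718, against at most 207, 68.8, 61.7 and 23.1 CPM in the other thymus and spleen libraries. Among lymph node libraries, iLN replicate 3 was the highest in the same genes, at 1875, 619.7, 476.7 and 225.4 CPM, against at most 117, 42.5, 30.3 and 22.4 CPM in the others. None of these genes is described as a difference between the tissues.

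Other called genes outside the lists kept their direction when any 1 library was left out. Vim, which encodes the filament protein vimentin, Ugcg, the first enzyme of glycosphingolipid synthesis, and St6gal1, a sialyltransferase, were higher in thymus in all 8 fits that left out 1 library, by 3.11 to 3.52, 1.22 to 1.31 and 2.18 to 2.30 on the log2 scale. Dtx1, a regulator of Notch signalling, and Asb2, a subunit of a ubiquitin ligase, were higher in spleen in all 8 such fits, with log2 fold changes from −3.88 to −3.31 and from −3.74 to −3.33. These 5 genes were chosen after their values were seen.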
